A study of Homo sapiens with 6 samples.

Results

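Ribosome biogenesis and RNA polymerase I genes were followed in SW1353, an established cell line from a human chondrosarcoma, a malignant tumour that forms cartilage. The set was a list of 50 genes chosen by name, with earlier results of these data known. All 50 matched a gene among the 60691 in the deposited table. They comprised 7 genes of the RNA polymerase I machinery, 8 of small nucleolar ribonucleoprotein (snoRNP) proteins, 15 of small-subunit processing, 14 of large-subunit assembly and 6 of nucleolar scaffolds and chaperones. Of the 50, 49 passed the filter on low counts and were tested, among 16591 genes tested in all. NOP2 was the member that did not pass.

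The shSIRT1 cells carried a lentiviral short hairpin RNA that the sample names assign to SIRT1, which encodes a deacetylase dependent on NAD+ (3 libraries). The shfirefly cells, the control, carried a hairpin against firefly luciferase, an insect enzyme that human cells lack (3 libraries). Both groups had been transduced with lentivirus and kept at 3% oxygen for 48 h after seeding, and each library was a biological replicate per the design text. The labels give neither the hairpin sequences nor the number of hairpins used. They also disagree on the target, since sample names and the design text name SIRT1 while the treatment protocol names EPAS1, the gene of HIF-2α. The comparison addressed the role of SIRT1 in HIF-2α-driven transcription and in the malignancy of these cells.

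Ribosomes are made in the nucleolus, where RNA polymerase I copies the ribosomal DNA repeats into a long precursor. Small nucleolar RNAs, each held in a protein complex, guide the chemical modification of that precursor, and large assemblies fold it, cut it and load ribosomal proteins to give the small and the large subunit. Many genes of this pathway are known targets of the MYC protein, and output of the pathway follows growth and nutrient supply. SIRT1 itself is known in the nucleolus as part of a complex with RRP8 that silences ribosomal DNA under energy shortage. The libraries were made from polyadenylated RNA, so the ribosomal RNA itself was not measured here.

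Library totals were 24993064 to 29564361 counts in shSIRT1 and 28556696 to 32044191 counts in shfirefly, and members took 0.455% ± 0.0170 of all counts in shSIRT1 and 0.312% ± 0.0122 in shfirefly (SD, n = 3 each). Levels below are CPM, counts scaled to a library of fixed size after TMM adjustment of library totals. SIRT1 mRNA reached 12.9, 13.2 and 14.7 CPM in the shSIRT1 libraries, against 25.99, 24.8 and 24.0 CPM in the shfirefly libraries. EPAS1 was lower as well, at 245, 226 and 227 CPM in the shSIRT1 libraries, against 477, 483 and 409 CPM in the shfirefly libraries, so both named targets were lower in the cells labelled shSIRT1. Of 7 chondrocyte markers SOX9 (41.6 to 54.0 CPM) and MATN3 (3.61 to 5.12 CPM) were expressed, COL2A1, ACAN, COL11A1 and COMP were under 2 CPM in every library, and COL9A1 had no counts. Epithelial and blood or endothelial markers, 4 of each, were all under 2 CPM.

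The promoter sequences of a few members are shown first. Promoters of this pathway are known for the E-box CACGTG, a palindrome bound by MYC with its partner MAX and by related factors. RefSeq windows of 300 bases (250 before to 50 after a gene's start, GRCh38.p14) were at hand for 41 of the 49 tested members. The windows printed are those of the 4 E-box members with the largest rise, RRP9, UTP20, LYAR and DDX21, and of the 2 E-box members that were not called, FBL and NOP10. Each runs 5′ to 3′ on the gene's strand, with CACGTG in capitals.
RRP9: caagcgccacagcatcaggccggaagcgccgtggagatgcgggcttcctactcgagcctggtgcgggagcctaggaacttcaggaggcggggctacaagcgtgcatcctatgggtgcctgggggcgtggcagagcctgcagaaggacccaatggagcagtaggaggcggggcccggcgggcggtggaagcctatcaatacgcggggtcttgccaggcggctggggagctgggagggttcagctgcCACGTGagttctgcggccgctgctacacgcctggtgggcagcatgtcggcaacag
UTP20: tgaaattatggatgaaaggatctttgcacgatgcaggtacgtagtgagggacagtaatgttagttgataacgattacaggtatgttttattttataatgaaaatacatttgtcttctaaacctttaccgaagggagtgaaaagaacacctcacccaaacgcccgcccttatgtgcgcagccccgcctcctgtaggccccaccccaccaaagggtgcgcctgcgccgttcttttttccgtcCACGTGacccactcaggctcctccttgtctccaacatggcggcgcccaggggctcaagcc
LYAR: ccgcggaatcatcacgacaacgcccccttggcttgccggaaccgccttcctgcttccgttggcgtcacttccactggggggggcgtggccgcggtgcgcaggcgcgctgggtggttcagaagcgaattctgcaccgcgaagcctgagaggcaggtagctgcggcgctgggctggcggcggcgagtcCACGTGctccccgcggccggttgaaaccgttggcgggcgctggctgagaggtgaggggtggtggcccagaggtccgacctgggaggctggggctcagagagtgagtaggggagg
DDX21: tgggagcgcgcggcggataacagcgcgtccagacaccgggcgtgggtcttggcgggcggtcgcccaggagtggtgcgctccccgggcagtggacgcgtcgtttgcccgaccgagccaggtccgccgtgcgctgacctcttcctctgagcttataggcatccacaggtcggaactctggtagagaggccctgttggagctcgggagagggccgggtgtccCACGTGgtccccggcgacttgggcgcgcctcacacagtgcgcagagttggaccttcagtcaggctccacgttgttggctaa
FBL: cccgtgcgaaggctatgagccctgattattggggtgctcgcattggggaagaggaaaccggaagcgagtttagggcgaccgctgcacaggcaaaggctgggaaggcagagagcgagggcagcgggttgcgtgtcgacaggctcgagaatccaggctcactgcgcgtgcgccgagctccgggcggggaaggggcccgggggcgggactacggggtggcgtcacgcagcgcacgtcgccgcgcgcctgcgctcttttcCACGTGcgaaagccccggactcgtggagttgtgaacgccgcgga
NOP10: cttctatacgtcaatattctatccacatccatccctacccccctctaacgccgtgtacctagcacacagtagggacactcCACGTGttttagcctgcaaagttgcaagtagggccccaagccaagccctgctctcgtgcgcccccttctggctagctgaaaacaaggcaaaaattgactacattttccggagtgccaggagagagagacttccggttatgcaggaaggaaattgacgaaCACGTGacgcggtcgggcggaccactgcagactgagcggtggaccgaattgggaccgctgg
The windows lie at chr3:51941855-51942154, minus strand (RRP9), chr12:101279855-101280154, plus strand (UTP20), chr4:4289972-4290271, minus strand (LYAR), chr10:68956397-68956696, plus strand (DDX21), chr19:39846330-39846629, minus strand (FBL) and chr15:34343087-34343386, minus strand (NOP10). In RRP9, UTP20, LYAR and DDX21 the E-box begins 5, 10, 64 and 31 bases before the start. In FBL it begins just after the start, and NOP10 holds a copy at 170 and another at 11 bases before it.

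The ribosome biogenesis genes were, as a group, more abundant in shSIRT1 cells. Because the list was chosen with earlier results of these data known, its counts are a description and no test of the group. Of the 49 tested, 45 rose, 1 fell and 3 did not pass the test (edgeR quasi-likelihood test, Benjamini-Hochberg adjusted p under 0.05). The background was high, since 52.8% of all genes tested were called, 26.8% as higher and 26% as lower. The median log2 fold change was 0.55 for members, with a range of -0.34 to 1.36, and 0.0047 for all genes tested. The changes were moderate in size: 19 members were higher by 1.5-fold or more and 2 by 2-fold or more, against 9.25% and 2.41% of all genes tested.

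The 3 libraries of each group kept apart for most members. For 45 members every shSIRT1 library lay above every shfirefly library, and for 1 every shSIRT1 library lay below. Of all genes tested, 30.4% were separated in this way upward, and the share separated downward was not counted. The median member stood 0.473, 0.606 and 0.530 log2 units above the shfirefly mean in the 3 shSIRT1 libraries, and at -0.030, -0.026 and 0.049 in the 3 shfirefly libraries. Within shSIRT1, replicate 2 was highest for 36 of 49 members, and within shfirefly replicate 3 was highest for 33. The median coefficient of variation of a member was 5.29% over the shSIRT1 libraries and 4.18% over the shfirefly libraries.

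Some features of the libraries as a whole moved with the groups. The summed level of 4 mesenchymal markers (VIM, COL1A1, COL1A2 and FN1) was 19524 to 20574 CPM in shSIRT1 and 31206 to 34527 CPM in shfirefly, and the 100 most abundant genes took 21.7% ± 0.121 of counts in shSIRT1 and 26.4% ± 0.431 in shfirefly (SD, n = 3 each). The part of these differences in the rise of the members was not tested. Scaled by library totals alone, the median of all genes was 0.13 and that of members 0.67, so the members stood 0.55 above all genes either way, and the split of all calls moved to 6225 higher and 3021 lower, against 4449 and 4311 with TMM. In bulk RNA, more cells of a kind and more RNA per cell cannot be told apart.

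**Figure D1:**
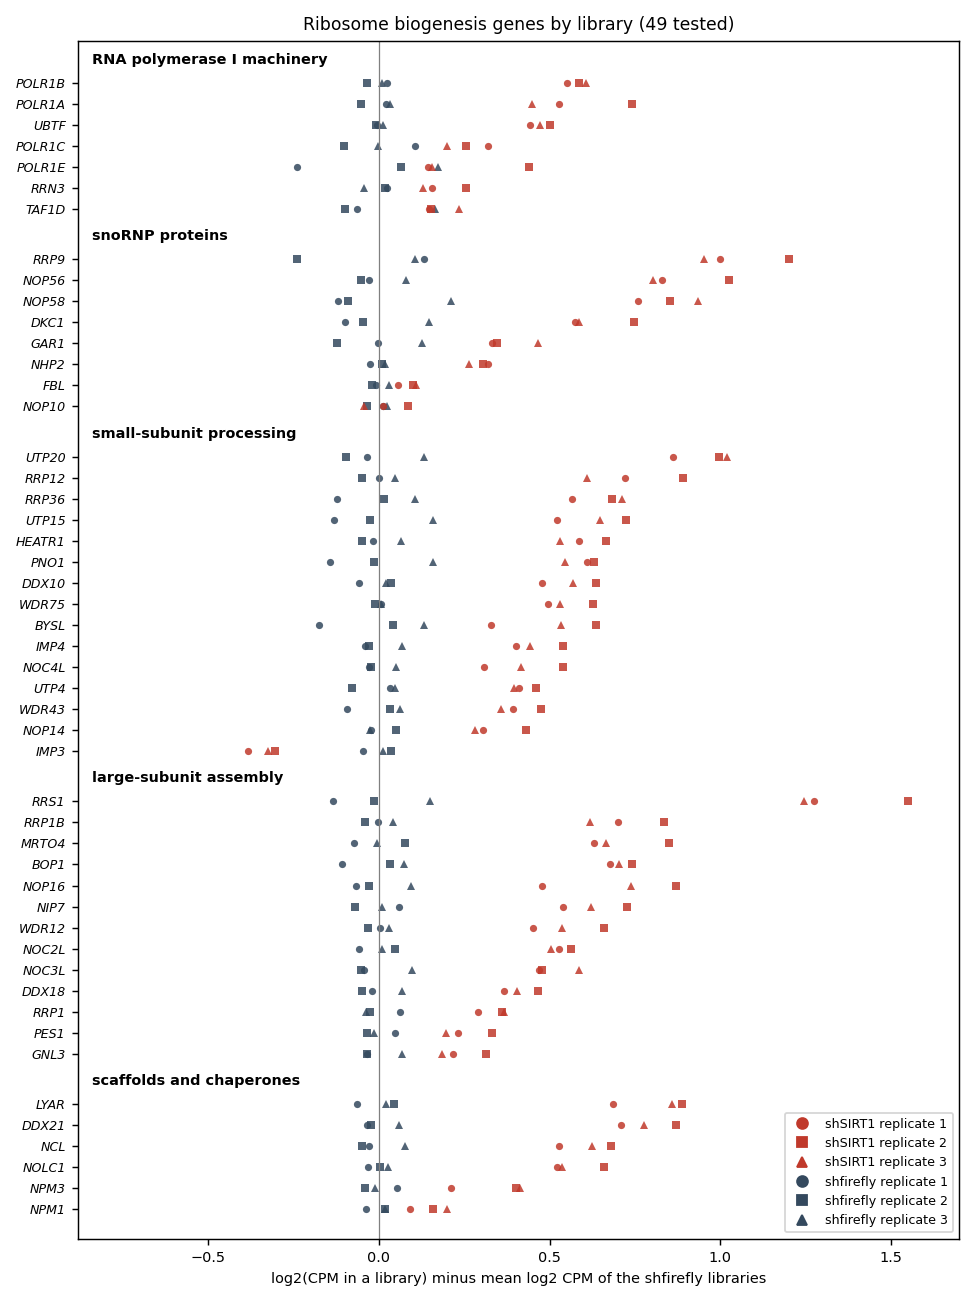
Each point is 1 library's log2 CPM of a member minus the mean log2 CPM of the 3 shfirefly libraries (horizontal axis, log2 units), with genes grouped by role down the page, shSIRT1 in red and shfirefly in blue. The red points lie to the right of the blue ones for 45 of the 49 genes, to the left for IMP3, and among them for TAF1D, POLR1E and NOP10.

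**Figure D2:**
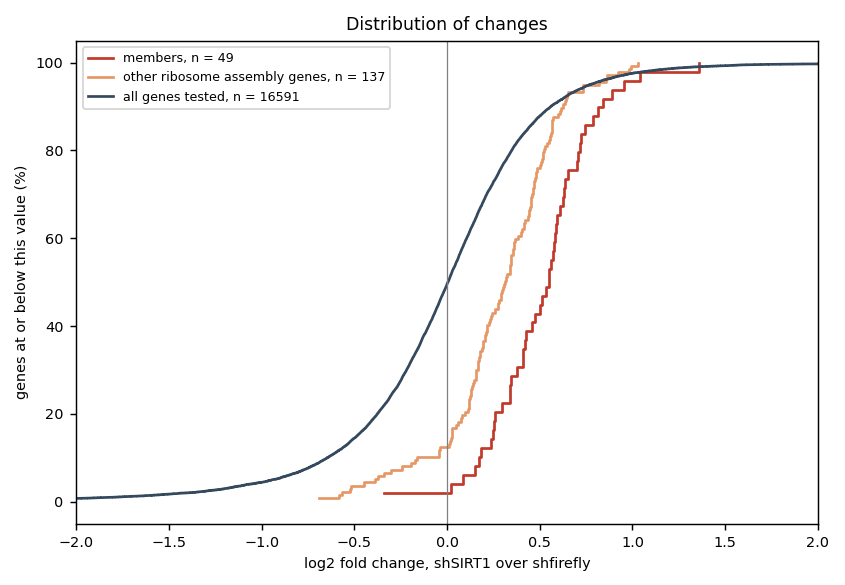
The curves give the share of genes (vertical axis, %) at or below each log2 fold change of shSIRT1 over shfirefly (horizontal axis, drawn from -2 to 2) for the 49 members, 137 other ribosome assembly genes and all 16591 genes tested. The members' curve lies farthest to the right with a median of 0.55, the other assembly genes follow at 0.31 and all genes centre at 0.0047.

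RNA polymerase I machinery genes had the lowest median change of the 5 role lists. Of 7 genes, 6 rose and POLR1E did not pass the test, beside 26.8% called higher among all genes tested. The median log2 fold change was 0.26, and none reached 1.5-fold. POLR1A, the largest catalytic subunit, had 76.1, 88.3 and 72.0 CPM in the shSIRT1 libraries, against 53.5, 50.9 and 54.0 CPM in the shfirefly libraries. Its log2 fold change was 0.58 ± 0.064 SE (adjusted p = 2.1e-06), the lowest shSIRT1 library lying well above the highest shfirefly library. POLR1B, the second subunit of the catalytic core, was almost identical between replicates at 24.7, 25.3 and 25.6 CPM in shSIRT1 cells and 17.1, 16.5 and 17.0 CPM in shfirefly cells, and its log2 fold change of 0.58 ± 0.066 SE was the same size (adjusted p = 2.0e-07).

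UBTF, the architectural factor that keeps ribosomal DNA open and recruits the polymerase, was the most abundant gene of the machinery per kilobase of exon. Its level was 120.2, 125 and 123 CPM in the shSIRT1 libraries, against 88.1, 88.0 and 89.2 CPM in the shfirefly libraries. The groups were far apart relative to their spread (log2 fold change 0.47 ± 0.04 SE, adjusted p = 1.9e-09). RRN3, also called TIF-IA, couples the polymerase to its promoter factors and averaged 51.6 ± 2.35 CPM in shSIRT1 cells and 45.5 ± 1.16 CPM in shfirefly cells (SD, n = 3 each), a log2 fold change of 0.18 ± 0.051 SE (adjusted p = 0.0049). After correction for transcript GC content and length (as an offset in the fit) the RRN3 value was 0.079 and its call was lost (adjusted p = 0.22). Named pseudogenes of RRN3 held 6.28% of the counts of all RRN3 loci together, so reads may be split between near-identical copies.

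POLR1C and TAF1D passed the test by a narrow margin. POLR1C, a subunit shared with RNA polymerase III, had 13.5, 12.9 and 12.4 CPM in the shSIRT1 libraries, against 11.6, 10.1 and 10.8 CPM in the shfirefly libraries, and the groups did not overlap (log2 fold change 0.26 ± 0.088 SE, adjusted p = 0.018). TAF1D, a subunit of the promoter selectivity factor SL1, had 81.7, 82.1 and 87.0 CPM in the shSIRT1 libraries, against 70.6, 69.0 and 82.7 CPM in the shfirefly libraries, and shfirefly replicate 3 lay inside the shSIRT1 range (log2 fold change 0.17 ± 0.06 SE, adjusted p = 0.025). Both calls depended on single libraries and on scaling: that of POLR1C was lost without shSIRT1 replicate 1, without shfirefly replicate 2, with upper-quartile factors and by DESeq2 (adjusted p = 0.065), and that of TAF1D was lost without shSIRT1 replicate 2 or 3, without shfirefly replicate 1 or 2 and with upper-quartile factors, and its sign turned with the GC and length offset (-0.053). POLR1E, a subunit of the heterodimer on the polymerase's flank, had 20.1, 24.7 and 20.3 CPM in the shSIRT1 libraries, against 15.4, 19.0 and 20.5 CPM in the shfirefly libraries. The groups overlapped through shfirefly replicate 3, and the log2 fold change of 0.25 ± 0.11 SE did not pass (adjusted p = 0.084), although it did pass without that library.

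The snoRNP proteins ranged from strong rises to differences that did not pass the test. Of 8 genes, 6 rose and 2 did not pass, with a median log2 fold change of 0.50, and ranges were apart for 7. Among all genes tested, 26.8% were called higher and 30.4% were separated upward. The box C/D snoRNPs, which guide 2′-O-methylation of ribosomal RNA, have the core proteins NOP56, NOP58 and the methyltransferase FBL. NOP56 had 80.2, 92.0 and 78.9 CPM in the shSIRT1 libraries, against 44.3, 43.5 and 47.8 CPM in the shfirefly libraries, and NOP58 had 74.6, 79.7 and 84.4 CPM in shSIRT1 cells and 40.6, 41.5 and 51.1 CPM in shfirefly cells. These were rises of 1.85-fold and 1.79-fold (log2 fold changes 0.89 ± 0.059 SE and 0.84 ± 0.091 SE, adjusted p = 4.1e-10 and 7.5e-05), with no overlap between groups. FBL had 98.8, 102 and 102 CPM in the shSIRT1 libraries, against 94.4, 93.7 and 97.0 CPM in the shfirefly libraries, so the groups did not overlap, yet the log2 fold change was only 0.088 ± 0.04 SE and did not pass (adjusted p = 0.073). The FBL value was 0.19 with the GC and length offset and 0.21 with library totals, and it passed with both (edgeR adjusted p = 4.1e-04 and 2.1e-04).

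RRP9, the protein specific to the U3 snoRNP that directs early cleavage of the precursor, had the second largest change of all members. It lies at chr3:51933430-51941941, minus strand (GRCh38). Its level was 17.8, 20.5 and 17.2 CPM in the shSIRT1 libraries, against 9.77, 7.55 and 9.58 CPM in the shfirefly libraries, a 2.06-fold difference (log2 fold change 1.04 ± 0.10 SE, adjusted p = 2.5e-08). Every shSIRT1 library was above every shfirefly library by a wide gap.

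The box H/ACA snoRNPs, which guide pseudouridylation, have 4 core proteins, and these had log2 fold changes from 0.019 to 0.63. DKC1, the pseudouridine synthase, had 68.5, 77.2 and 69.0 CPM in the shSIRT1 libraries, against 42.9, 44.5 and 50.9 CPM in the shfirefly libraries (log2 fold change 0.63 ± 0.065 SE, adjusted p = 5.2e-07). GAR1 and NHP2, its partners, rose too, with log2 fold changes of 0.38 ± 0.074 SE and 0.30 ± 0.051 SE (adjusted p = 2.1e-04 and 3.8e-05) and means of 23.7 ± 1.22 CPM in shSIRT1 cells and 18.2 ± 1.56 CPM in shfirefly cells for GAR1 and 46.5 ± 0.903 CPM in shSIRT1 cells and 37.8 ± 0.599 CPM in shfirefly cells for NHP2 (SD, n = 3 each). NOP10, the small scaffold protein that binds DKC1, had 42.9, 45.2 and 41.4 CPM in the shSIRT1 libraries, against 42.9, 41.6 and 43.3 CPM in the shfirefly libraries. The groups were intermingled, and the log2 fold change of 0.019 ± 0.052 SE did not pass (adjusted p = 0.785).

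Ratios between partners of these complexes are given as a description. The ratio of NOP56 to FBL CPM was 0.828 ± 0.0676 in shSIRT1 cells and 0.475 ± 0.0150 in shfirefly cells, and that of NOP58 to FBL was 0.787 ± 0.0348 in shSIRT1 cells and 0.466 ± 0.0525 in shfirefly cells (SD, n = 3 each). DKC1 to NOP10 was 1.66 ± 0.0573 in shSIRT1 cells and 1.08 ± 0.0882 in shfirefly cells (SD, n = 3 each). The ratios given here and below are among 11 that were chosen after the values were seen. That their groups do not overlap follows from the choice, and no test is drawn from them. Gene length cancels when a ratio is compared between groups, but a ratio is not a molar proportion.

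**Figure D3:**
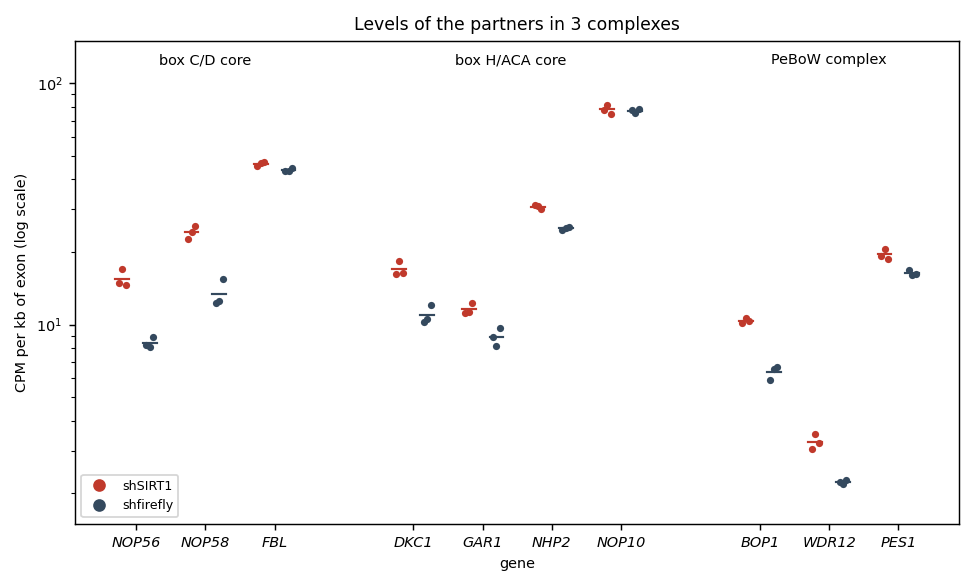
Points are libraries and bars are group means of CPM per kilobase of exon (log axis) for the partners of the box C/D core, the box H/ACA core and the PeBoW complex, with shSIRT1 left of shfirefly for each gene. FBL and NOP10, the most abundant partners at 46.5 and 77.9 in shSIRT1, lie close to their shfirefly levels of 43.7 and 76.9, while NOP56, NOP58 and DKC1 are clearly separated.

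Small-subunit processing genes rose with 1 exception. Of 15 genes, 14 rose and IMP3 fell, with a median log2 fold change of 0.55, and the ranges of the groups were apart for all 15. Over all genes tested, 26.8% were called higher, 26% were called lower and 30.4% were separated upward. UTP20, a very large protein of the 90S pre-ribosome, rose most. It lies at chr12:101280109-101386616, plus strand, and had 46.6, 51.1 and 52.0 CPM in the shSIRT1 libraries, against 25.0, 24.0 and 28.1 CPM in the shfirefly libraries. This was a 1.94-fold difference (log2 fold change 0.96 ± 0.064 SE, adjusted p = 7.5e-11).

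The UTP-A proteins bind the 5′ end of the precursor first, and in human cells they are also needed for transcription of ribosomal DNA. All 5 listed here rose: HEATR1 by 0.59 ± 0.05 SE, UTP15 by 0.63 ± 0.088 SE, WDR75 by 0.55 ± 0.053 SE, UTP4 by 0.42 ± 0.052 SE and WDR43 by 0.41 ± 0.053 SE on the log2 scale (adjusted p from 2.3e-09 for HEATR1 to 3.1e-06 for UTP15). HEATR1, the largest of them, had 71.0, 75.0 and 68.3 CPM in the shSIRT1 libraries, against 46.7, 45.7 and 49.5 CPM in the shfirefly libraries. WDR75 varied little among shfirefly libraries, with 48.4, 53.1 and 49.6 CPM in shSIRT1 cells and 34.5, 34.1 and 34.5 CPM in shfirefly cells. The WDR75 value dropped to 0.35 with the GC and length offset and remained called.

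IMP3 and IMP4 belong to a complex that pairs U3 RNA with the precursor, and they moved in opposite directions. IMP3 lies at chr15:75639085-75648706, minus strand, and had 65.5, 69.3 and 68.2 CPM in the shSIRT1 libraries, against 82.8, 87.7 and 86.2 CPM in the shfirefly libraries. It fell by 0.34 on the log2 scale (SE 0.044, adjusted p = 1.4e-06), all 3 shSIRT1 libraries lying below all 3 shfirefly libraries. IMP4 had 46.0, 50.6 and 47.3 CPM in the shSIRT1 libraries, against 33.9, 34.1 and 36.5 CPM in the shfirefly libraries and rose by 0.46 ± 0.055 SE (adjusted p = 4.1e-07). The ratio of IMP4 to IMP3 was 0.708 ± 0.0192 in shSIRT1 cells and 0.407 ± 0.0173 in shfirefly cells (SD, n = 3 each). The fall of IMP3 was called under every alternative run, with a value of -0.22 under library totals and under the GC and length offset, and IMP3 overlaps 4 genes on the other strand.

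The other small-subunit factors rose as well. RRP12, a HEAT-repeat export factor, rose by 0.75 ± 0.082 SE, and RRP36, a factor of early cleavage, by 0.65 ± 0.06 SE. RRP12 had 20.5, 23.1 and 19.0 CPM in shSIRT1 cells and 12.4, 12.0 and 12.8 CPM in shfirefly cells, and RRP36 had 51.4, 55.7 and 56.9 CPM in shSIRT1 cells and 31.9, 35.1 and 37.4 CPM in shfirefly cells, so neither overlapped between groups. PNO1 and BYSL stay with the maturing small subunit into its late steps. PNO1 had 21.6, 21.9 and 20.7 CPM in shSIRT1 cells and 12.8, 14.0 and 15.8 CPM in shfirefly cells, and BYSL had 18.1, 22.4 and 20.9 CPM in shSIRT1 cells and 12.8, 14.8 and 15.8 CPM in shfirefly cells. Their log2 fold changes were 0.59 ± 0.08 SE and 0.50 ± 0.091 SE (adjusted p = 2.2e-06 and 1.2e-04). DDX10, an RNA helicase, rose by 0.56 ± 0.073 SE, and NOP14 and its partner NOC4L rose by 0.34 ± 0.052 SE and 0.42 ± 0.083 SE.

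Every tested large-subunit assembly gene rose, 13 of 13, with a median log2 fold change of 0.55 and no overlap of ranges. Of all genes tested, 26.8% were called higher and 30.4% were separated upward. RRS1, known from yeast to bring the 5S particle into the large subunit, rose most of all members, at 13.9, 16.9 and 13.6 CPM in the shSIRT1 libraries, against 5.24, 5.70 and 6.39 CPM in the shfirefly libraries. This was a 2.56-fold difference (log2 fold change 1.36 ± 0.11 SE, adjusted p = 9.0e-10), on the fewest shfirefly counts of any tested member. RRS1 overlaps 1 annotated gene on its own strand, so some of its reads may be shared.

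BOP1, PES1 and WDR12 form the PeBoW complex, which is needed to mature the RNA of the large subunit. BOP1 had 37.8, 39.6 and 38.5 CPM in the shSIRT1 libraries, against 22.0, 24.2 and 24.9 CPM in the shfirefly libraries, and WDR12 had 27.7, 32.0 and 29.4 CPM in shSIRT1 cells and 20.3, 19.8 and 20.7 CPM in shfirefly cells. Their log2 fold changes were 0.71 ± 0.061 SE and 0.55 ± 0.067 SE (adjusted p = 3.5e-09 and 5.1e-07). PES1, which was the most abundant of the 3 per kilobase, rose as well, at 87.7, 93.8 and 85.5 CPM in the shSIRT1 libraries, against 77.0, 72.9 and 73.9 CPM in the shfirefly libraries (log2 fold change 0.25 ± 0.046 SE, adjusted p = 7.1e-05). The ratio of BOP1 to PES1 was 0.435 ± 0.0145 in shSIRT1 cells and 0.318 ± 0.0286 in shfirefly cells, and that of WDR12 to PES1 was 0.334 ± 0.0153 in shSIRT1 cells and 0.272 ± 0.00803 in shfirefly cells (SD, n = 3 each).

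Some large-subunit factors are relatives or partners of each other. RRP1B rose by 0.72 ± 0.055 SE and its relative RRP1 by 0.34 ± 0.064 SE, with 67.3, 73.8 and 63.5 CPM in shSIRT1 cells and 41.3, 40.3 and 42.6 CPM in shfirefly cells for RRP1B and 25.7, 26.9 and 27.1 CPM in shSIRT1 cells and 21.9, 20.6 and 20.5 CPM in shfirefly cells for RRP1. NOC2L and NOC3L, nucleolar complex proteins that work in pairs, rose by 0.53 ± 0.044 SE and 0.51 ± 0.059 SE. MRTO4, a relative of the ribosomal stalk protein that holds its place during assembly, had 53.1, 61.8 and 54.4 CPM in the shSIRT1 libraries, against 32.6, 36.1 and 34.2 CPM in the shfirefly libraries and rose by 0.72 ± 0.061 SE (adjusted p = 3.5e-09). The rises of RRP1 and RRP1B were not tested against each other.

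The remaining large-subunit factors covered a wide span. NOP16, a factor of early large-subunit particles, averaged 21.1 ± 2.84 CPM in shSIRT1 cells and 12.9 ± 0.765 CPM in shfirefly cells, and NIP7, needed for processing of the precursor, averaged 39.8 ± 2.62 CPM in shSIRT1 cells and 25.7 ± 1.17 CPM in shfirefly cells (SD, n = 3 each), with log2 fold changes of 0.70 ± 0.092 SE and 0.63 ± 0.062 SE (adjusted p = 2.3e-06 and 2.5e-08). DDX18, an RNA helicase of the large subunit, rose by 0.41 ± 0.045 SE, and GNL3, the GTPase nucleostemin that shuttles between nucleolus and nucleoplasm, by 0.24 ± 0.047 SE (adjusted p = 9.2e-08 and 2.1e-04). GNL3 had 82.2, 88.0 and 80.5 CPM in shSIRT1 cells and 69.0, 69.1 and 74.2 CPM in shfirefly cells. With the GC and length offset the values were 0.31 for NOC3L, 0.27 for DDX18 and 0.15 for GNL3, all still called.

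NOP2, an RNA methyltransferase of the large subunit that marks proliferating cells, was almost without counts. It held 26 counts over the 3 shSIRT1 libraries and 29 over the 3 shfirefly libraries, or 0.261, 0.326 and 0.306 CPM in the shSIRT1 libraries, against 0.228, 0.370 and 0.387 CPM in the shfirefly libraries. Without the filter its log2 fold change was -0.13 ± 0.53 SE (adjusted p = 0.90), so no direction can be read from these counts. In the annotation used here NOP2 (chr12:6556863-6568691, minus strand) is covered on its own strand by AC006064.6, a gene with 0 counts in the table. How reads over both genes were assigned is not given in the sources used here.

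All 6 scaffold and chaperone genes rose, with a median log2 fold change of 0.59 and no overlap of ranges. Among all genes tested, 26.8% were called higher and 30.4% were separated upward. LYAR, a nucleolar growth regulator, had 30.2, 34.8 and 34.1 CPM in the shSIRT1 libraries, against 18.0, 19.4 and 19.1 CPM in the shfirefly libraries, a 1.76-fold difference (log2 fold change 0.81 ± 0.068 SE, adjusted p = 2.1e-09). DDX21, a helicase that acts in both ribosomal RNA transcription and processing, had 159.7, 179 and 167 CPM in the shSIRT1 libraries, against 95.3, 96.1 and 102 CPM in the shfirefly libraries. It gave the lowest adjusted p of all members (5.3e-12, log2 fold change 0.79 ± 0.045 SE). NOLC1, which escorts snoRNPs, averaged 126 ± 6.78 CPM in shSIRT1 cells and 84.9 ± 1.67 CPM in shfirefly cells (SD, n = 3 each), a rise of 0.57 ± 0.044 SE.

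NCL and NPM1, the main nucleolar phosphoproteins, together took 41.8% ± 0.744 of member counts in shSIRT1 and 43.7% ± 0.192 in shfirefly (SD, n = 3 each). NCL, which binds nascent ribosomal RNA, had 846, 940.4 and 904 CPM in the shSIRT1 libraries, against 575, 568 and 619.6 CPM in the shfirefly libraries. NPM1, a histone chaperone of the outer nucleolus, had 891, 933 and 959.9 CPM in the shSIRT1 libraries, against 814, 847 and 847 CPM in the shfirefly libraries. Both rose without overlap, NCL by 0.61 ± 0.043 SE and NPM1 by 0.15 ± 0.037 SE on the log2 scale (adjusted p = 4.6e-10 and 0.0016), and the ratio of NCL to NPM1 was 0.966 ± 0.0360 in shSIRT1 cells and 0.702 ± 0.0308 in shfirefly cells. NPM3, a smaller relative that binds NPM1, had 10.4, 11.8 and 11.9 CPM in shSIRT1 cells and 9.28, 8.69 and 8.87 CPM in shfirefly cells. It rose by 0.34 ± 0.094 SE (adjusted p = 0.0041). There were 46 named pseudogenes of NPM1, 20 of them with reads, and they held 1.30% of the counts of all NPM1 loci.

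Levels per kilobase of exon differed widely between members. NPM1 was highest at 242 ± 9.07 in shSIRT1 and 219 ± 4.96 in shfirefly, followed by NCL at 129 ± 6.91 in shSIRT1 and 84.8 ± 4.05 in shfirefly and NOP10 at 77.9 ± 3.48 in shSIRT1 and 76.9 ± 1.59 in shfirefly CPM per kilobase (SD, n = 3 each). FBL came next at 46.5 ± 0.901 in shSIRT1 and 43.7 ± 0.794 in shfirefly, while RRP12 was the scarcest tested member in shfirefly at 2.44 ± 0.243 in shSIRT1 and 1.46 ± 0.0479 in shfirefly CPM per kilobase. The order of neighbours changed between groups in places: NHP2, at 30.8 ± 0.598 in shSIRT1 and 25.1 ± 0.397 in shfirefly, lay below IMP3 in shfirefly and above it in shSIRT1, where IMP3 stood at 26.4 ± 0.758 CPM per kilobase.

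Members at high levels had the smaller changes at the median, as a description. The 10 members with the highest level per kilobase in shfirefly had a median log2 fold change of 0.25, and the other 39 one of 0.56. The ranges overlapped, at -0.34 to 0.79 for the 10 and 0.17 to 1.36 for the 39. NCL (0.61), NOLC1 (0.57) and DDX21 (0.79) were among the 10 and had larger changes. Across the 49 members the log2 fold change and the level per kilobase in shfirefly had a Spearman correlation of -0.40 and a Pearson correlation of -0.46 (Pearson against the log2 level) as a description over genes that share libraries and that share the shfirefly values on both axes. For transcript length the Spearman correlation was 0.21, and for transcript GC content it was 0.020. The median transcript GC content of members was 48.4%, against 48.2% for all genes tested.

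**Figure D4:**
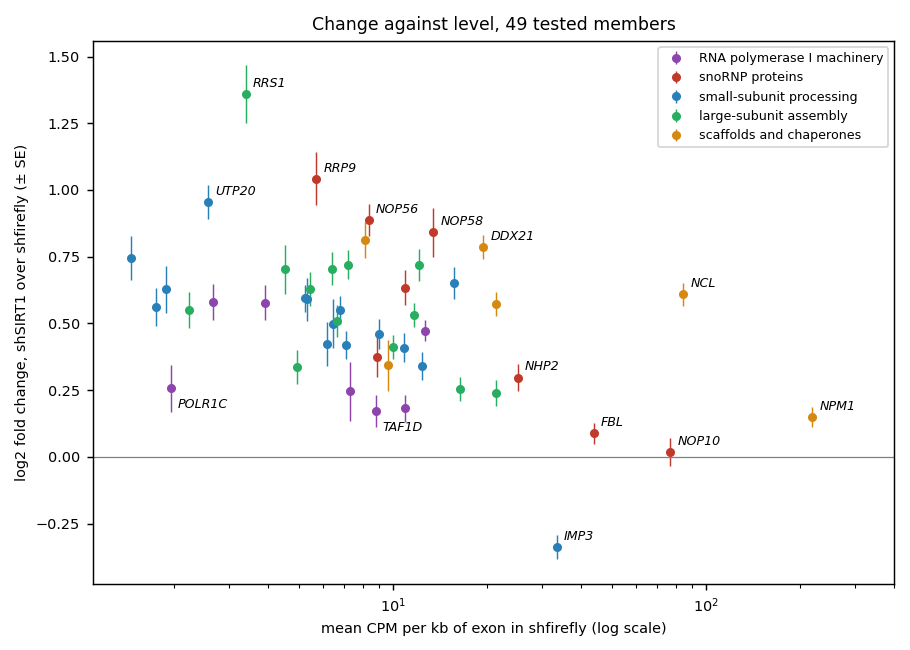
Each point is 1 of the 49 tested members, with its mean shfirefly level in CPM per kilobase of exon on the horizontal log axis and its log2 fold change of shSIRT1 over shfirefly, ± SE, on the vertical axis, coloured by role. RRS1 at 1.36 and RRP9 at 1.04 stand highest at low levels, and NPM1, NOP10, FBL and IMP3 at high levels lie at 0.15, 0.019, 0.088 and -0.34. NCL and DDX21, also at high levels, lie at 0.61 and 0.79.

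Some members carry snoRNA genes inside their own transcript on the same strand, and these were POLR1C, TAF1D, NOP56, NOP58, DKC1, WDR43, GNL3 and NCL. The 8 hosts had a median log2 fold change of 0.51 with a range of 0.17 to 0.89, and the other 41 tested members had a median of 0.55. All 265 tested genes that host a snoRNA had a median of 0.079. TAF1D, with 8 annotated snoRNAs the richest host among members, had the lowest change of the 8.

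The E-box was common in the member windows. Among the 41 members with a window, those with an E-box had no higher median change than those without. CACGTG, which reads the same on both strands, was found in the windows of 17 of 41 members (41.5%), against 8.77% of the 27305 genes with a window and 12.1% of the 11139 tested genes with one. In 16 of the 17 an E-box began within 50 bases of the start. The 17 members with an E-box had a median log2 fold change of 0.46, with 15 higher and 2 not called. The 24 with a window but no E-box had a median of 0.55, with 23 higher and 1 lower. Of all genes tested, 26.8% were called higher and 26% lower. The 8 tested members without a window, RRS1 among them, are in neither group, and an E-box outside the window would be missed. The difference between the medians was not tested. MYC mRNA was lower in shSIRT1 cells, at 58.8, 64.7 and 59.2 CPM in the shSIRT1 libraries, against 81.6, 87.9 and 86.4 CPM in the shfirefly libraries (log2 fold change -0.49 ± 0.049 SE, adjusted p = 3.0e-08).

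Other promoter motifs were searched on both strands in the same windows. GGGCGG, the GC box, was in 75.6% of members with a window and 75.0% of tested genes with one, and CCAAT was in 46.3% of members and 43.5% of tested genes. CCGGAA, the core of the ETS motif, was in 53.7% of members and 33.3% of tested genes. No motif contains another, although neighbouring matches may share bases, and a match describes only the letters in the window.

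The other genes of ribosome assembly also leaned upward, with a lower median. Their lists, too, were chosen with earlier results of these data known, so the contrast with the members is a description. Of 137 genes outside the members, 94 rose, 11 fell and 32 did not pass, with a median log2 fold change of 0.31, against 26.8% higher and 26% lower among all genes tested. Other small-subunit factors counted 31 higher and 2 lower of 45 (median 0.35), and other large-subunit factors 36 higher and 4 lower of 49 (median 0.32). Genes of ribosomal RNA cleavage and snoRNP assembly counted 20 higher and 2 lower of 28 (median 0.33).

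The largest called rises in these lists were in URB2, MPHOSPH10, CEBPZ, EXOSC4 and NOL8. URB2, a large-subunit factor, had 20.1, 24.2 and 21.1 CPM in the shSIRT1 libraries, against 10.6, 10.5 and 10.9 CPM in the shfirefly libraries (log2 fold change 1.03 ± 0.083 SE, adjusted p = 1.1e-09). MPHOSPH10, the partner of IMP3 and IMP4 in the U3 complex, had 25.2, 25.9 and 28.5 CPM in the shSIRT1 libraries, against 12.1, 12.6 and 15.5 CPM in the shfirefly libraries (log2 fold change 0.98 ± 0.088 SE, adjusted p = 1.6e-08). In that 3-protein complex, MPHOSPH10 and IMP4 rose while IMP3 fell. CEBPZ, the counterpart of yeast NOC1, rose by 0.92 ± 0.17 SE, EXOSC4, a subunit of the RNA exosome, by 0.86 ± 0.14 SE, and NOL8 by 0.86 ± 0.10 SE (adjusted p = 0.0078, 1.9e-05 and 1.0e-05).

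The largest falls were in NOP53, PPAN, POLR1H, EFL1 and POLR1D. NOP53, known from yeast to dock the exosome on the large subunit, had 103, 98.4 and 102 CPM in the shSIRT1 libraries, against 163, 172 and 154 CPM in the shfirefly libraries (log2 fold change -0.69 ± 0.043 SE, adjusted p = 2.2e-11). PPAN, a large-subunit factor, had 11.7, 9.20 and 10.1 CPM in shSIRT1 cells and 16.2, 15.5 and 14.8 CPM in shfirefly cells, and EFL1, the GTPase that frees the finished large subunit of EIF6, had 50.5, 51.2 and 46.5 CPM in shSIRT1 cells and 69.96, 73.4 and 70.04 CPM in shfirefly cells. Both groups were apart for each of them (log2 fold changes -0.58 ± 0.093 SE and -0.52 ± 0.049 SE, adjusted p = 1.8e-05 and 1.2e-08).

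The rest of the RNA polymerase I apparatus was mixed, with 7 higher, 3 lower and 5 not called of 15 and a median of 0.14. That is 46.7% higher and 20% lower, against 26.8% and 26% of all genes tested. The 15 include TBP, POLR2E, POLR2F, POLR2H, POLR2K and POLR2L, which other RNA polymerases also use. Among those shared genes POLR2E, POLR2K and POLR2L rose, POLR2H fell, and POLR2F and TBP were not called. POLR1D, the partner of POLR1C that is shared with RNA polymerase III, had 58.3, 58.8 and 59.1 CPM in the shSIRT1 libraries, against 86.6, 83.7 and 81.6 CPM in the shfirefly libraries, a fall of 0.52 on the log2 scale (SE 0.044, adjusted p = 2.7e-09). POLR1H, a small subunit listed as ZNRD1 in the table, also fell, by 0.57 (SE 0.11, adjusted p = 1.4e-04). The ratio of POLR1A to POLR1D CPM was 1.34 ± 0.144 in shSIRT1 cells and 0.629 ± 0.0287 in shfirefly cells, and that of POLR1B to POLR1D was 0.429 ± 0.00506 in shSIRT1 cells and 0.201 ± 0.00619 in shfirefly cells (SD, n = 3 each). Subunits of 1 enzyme moved in opposite directions at the mRNA level. RRP8, the silencing partner of SIRT1 named above, had 13.0, 14.5 and 13.9 CPM in the shSIRT1 libraries, against 11.9, 10.3 and 11.9 CPM in the shfirefly libraries and rose by 0.28 ± 0.088 SE (adjusted p = 0.011).

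The authors' deposited table gives nearly the same values. It lists 44 members as higher and 1 as lower at an adjusted p under 0.05. The share of all genes called there was not counted. DESeq2 run here called 3895 of all genes higher and 3674 lower. The authors' log2 fold changes of the 49 tested members differed from those above by at most 0.0020. Both sets of values come from the same counts, so their closeness is no independent check. The member called here but not in the authors' deposited table was POLR1C, with an adjusted p there of 0.065. Of the 49 tested members, 4 overlap in position with a gene annotated on their own strand and 24 with a gene on the opposite strand. Whether the authors' counting used the strand is not given in the sources used here, so reads of such pairs may be mixed.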

How the data were processed

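RNA from 6 SW1353 samples was sequenced after TruSeq Stranded mRNA library preparation, per the labels' protocols. Trimmomatic, STAR, DESeq2 and GRCh38 are named in the submitters' processing notes; versions, the read counter and its strand setting were not given in the sources used here. The deposited table holds raw read counts per gene, per the file headers, and the authors' log2 fold change and adjusted p-value for each gene, which were used for comparison only.

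Counts were tested on the whole table with edgeR 4.0.16 in R 4.3.3 (filterByExpr, TMM, robust quasi-likelihood fit on group, Benjamini-Hochberg adjustment over 16591 genes, threshold 0.05). DESeq2 1.42.0 was an alternative, with other scaling factors, filters, a replicate block, a correction for transcript GC content and length as an offset (splines with 5 degrees of freedom) and each library left out. Chosen after seeing the data were the 11 ratios and a fit without both libraries numbered 3. Standard errors came from the log2 fold change and F. In simulated counts with 200 changed genes, the procedure recovered 74.5% of changes of 0.5 and 80.6% of changes of 1 on the log2 scale. Of its calls 13.6% were false, a larger share than the threshold of 0.05 allows. Far more genes were called in the data (52.8%), so that false share may not carry over to them. Per-kilobase levels and coordinates used GENCODE 29, whose exon models may differ from those the authors counted, and promoters came from RefSeq (GRCh38.p14). Replicates differed by more than sampling noise (chi-square per gene 2.67 to 5.58 within groups, 50.9 to 79.4 between).

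The members and lists were chosen with earlier results of these data known. Named genes were all 50 members, the 5 largest called rises and falls among 137 other pathway genes, and SIRT1, EPAS1 and MYC; RRP8 was added after its values were seen.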

Additional observations from a re-analysis of the deposited data

How the results depend on the processing

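Members called higher numbered 43 to 48 under all alternatives, and IMP3 was the 1 called lower in each; leaving out 1 library gave 43 to 46. The median member change was 0.67 with library totals. The median of the other 137 pathway genes was 0.27 with upper-quartile factors, 0.44 with library totals and 0.27 with the GC and length offset. Calls over all genes numbered 3813 higher and 4984 lower with upper-quartile factors, and 6225 higher and 3021 lower with library totals. NOP10 was never called lower but turned sign with upper-quartile factors (-0.030), and leaving out 1 library gave it -0.015 to 0.049, the negative value coming without shSIRT1 replicate 2. TAF1D was -0.053 with the GC and length offset. FBL passed with library totals (0.21) and with the GC and length offset (0.19), NOP10 with library totals (0.14), and POLR1E with library totals, no filter, the replicate block, the GC and length offset, and without shfirefly replicate 3. The causes of these changes were not tested. Of all settings of single members, each counted under 1 label, 762 kept side and direction, 10 lost and 9 gained the call, and 3 changed sign. TAF1D with the GC and length offset is counted as a change of sign, though it also lost its call.

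With the replicate number as a block, 46 members rose and 1 fell, 99 and 11 of the other pathway genes, and 4711 and 4465 of all genes. Same-numbered libraries of the 2 groups deviated with correlations of -0.013, -0.071 and 0.12, and 1 of 3 shSIRT1 libraries correlated best with its own number, so the numbers were not taken to pair samples. Without both libraries numbered 3, 46 members rose and 1 fell, against 4404 and 4079 of all genes. NOP2, with 26 counts in shSIRT1 and 29 in shfirefly, gave no readable direction, and why its counts were so few was not tested. Every other member passed the filter on low counts.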
